A study of Mus musculus with 32 samples.

Results

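Cplx4, Syp and Syt1 encode proteins of the synaptic vesicle and of its fusion with the membrane. The 3 genes were taken by symbol, as all probes of the arrays annotated to these names, and they are 3 of 9030 named genes and 5 of 20794 probes. Cplx4 and Syp have 1 probe each (14960 and 17724), and Syt1 has 3 probes (15791, 16814 and 17277). The arrays set RNA of sighted C3H mice, of the seh line in the series' design text, against RNA of control C3H males named C3H.pde6b-, in eye, brain and heart. All mice were of the C3H background. Pde6b encodes a subunit of the rod phosphodiesterase, and its defect is the known cause of retinal degeneration in C3H strains. The design text gives 6 male sighted animals and the labels give a pool of 6 control males for each organ. The pools of brain and heart came from the same control mice and the eye pool from other mice. The sources used here give no ages.

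Neurons store transmitter in vesicles and release it when calcium enters the terminal. Syt1 encodes synaptotagmin 1, the vesicle's calcium sensor for fast release. Syp encodes synaptophysin, an abundant vesicle membrane protein that binds the SNARE protein synaptobrevin and is found in nearly all synapses. Complexins bind the assembled SNARE complex and adjust its fusion. Cplx4 encodes a complexin that is found in the retina at ribbon synapses, the terminals with which photoreceptors and bipolar cells release glutamate without pause. In mice with the Pde6b defect the rods die early in life, and their terminals are lost with them.

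The stretch around the start site is shown for Syp and Syt1, and that of Cplx4 is not reported here. Each runs from 250 bases before to 50 bases after a start, 5′ to 3′ on the gene's strand, from RefSeq on GRCm38.p6. Syp lies at chrX:7638330-7638629 on the plus strand, and the starts of Syt1 at chr10:109010926-109011225 and chr10:109009062-109009361 on the minus strand. Capitals mark matches on either strand to TAATCC (the core bound by the photoreceptor factor CRX, GGATTA on the other strand), CCAAT (the CCAAT box, ATTGG on the other strand) and GGGCGG (the GC box).
Syp start: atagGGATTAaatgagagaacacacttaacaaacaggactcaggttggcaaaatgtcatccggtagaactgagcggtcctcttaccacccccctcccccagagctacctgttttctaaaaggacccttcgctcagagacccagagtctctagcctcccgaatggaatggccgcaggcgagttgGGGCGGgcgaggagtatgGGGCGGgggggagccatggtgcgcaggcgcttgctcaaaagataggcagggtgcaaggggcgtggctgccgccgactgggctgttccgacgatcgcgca
Syt1 first start: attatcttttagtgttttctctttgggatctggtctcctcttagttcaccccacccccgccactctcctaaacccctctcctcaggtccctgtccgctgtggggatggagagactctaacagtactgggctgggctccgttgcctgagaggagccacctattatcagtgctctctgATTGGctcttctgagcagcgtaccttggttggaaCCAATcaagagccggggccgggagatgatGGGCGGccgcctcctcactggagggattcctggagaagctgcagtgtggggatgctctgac
Syt1 second start: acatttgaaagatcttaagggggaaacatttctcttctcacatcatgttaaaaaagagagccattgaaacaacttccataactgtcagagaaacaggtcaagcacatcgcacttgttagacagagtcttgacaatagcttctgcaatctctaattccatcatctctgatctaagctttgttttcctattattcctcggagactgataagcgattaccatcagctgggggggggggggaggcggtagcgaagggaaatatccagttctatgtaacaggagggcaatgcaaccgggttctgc
The Syp stretch held 1 TAATCC and 2 GGGCGG matches and 0 of CCAAT. The first Syt1 stretch held 2 CCAAT matches, 1 of GGGCGG and 0 of TAATCC, and the second held 0 of all of them. No motif overlapped another. Of 32851 stretches of this length in the table, 7.06% held TAATCC, 37.4% held CCAAT and 35.7% held GGGCGG. These matches are descriptions of letters and not of binding.

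The 32 arrays were of the cDNA type with 2 colours, 12 for eye, 12 for brain and 8 for heart, and their number limits the precision. Each value is a log2 ratio of sighted over control RNA within an array, so that it holds a difference and no level, and genes cannot be ranked by abundance. Neighbouring arrays with swapped dyes were averaged, and each such pair counts as 1 replicate (6 in eye, 6 in brain, 4 in heart). No label ties an array to an animal, and the control side was 1 pool, so p-values measure only the spread between these arrays. Missing values made up 1.62 to 5.10% of an eye array, 1.01 to 5.05% of a brain array and 5.96 to 61.6% of a heart array. The direction of the deposited ratio was read from 6 rod genes, whose median was 4.98 to 5.76 on eye arrays with sighted RNA in Cy5 and -5.2 to -4.06 with sighted RNA in Cy3. It is likely and not stated, and every sign below turns if it is the other way.

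In eye, all 3 genes were higher in sighted RNA, Cplx4 by 10.2-fold, Syp by 1.56-fold and Syt1 by 1.30-fold. Each was higher in 6 of 6 replicates. Of all 15874 genes tested in eye, 26.8% passed an adjusted p of 0.05, with 15.9% higher and 11% lower (limma with Benjamini-Hochberg adjustment), so a call by itself is common there. The arrays read RNA of whole organs, in which fewer cells of a type and less RNA per cell cannot be told apart.

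Cplx4, the ribbon synapse complexin, had log2 ratios of 3.31, 3.16, 3.49, 3.50, 3.34 and 3.27 in replicates 1 to 6 of eye. All 6 lay far above 0 and close to each other. The mean was 3.34 ± 0.13 (SD, n = 6), a fold of 10.2 with a 95% interval of 9.16 to 11.3 and an adjusted p of 2.61e-08 by limma. This ratio was the 17th highest of 15874 genes tested and the 11th of 8561 named ones. The gene's single probe was high in both dye orientations, at 3.28, 3.63 and 3.83 (lowest, median and highest of 6 arrays) with sighted RNA in Cy5 and at 2.74, 3.10 and 3.30 with sighted RNA in Cy3.

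Syp, the vesicle membrane protein synaptophysin, had log2 ratios of 0.755, 0.365, 0.831, 0.544, 0.845 and 0.483 in the eye replicates. Every replicate was above 0, and replicate 2 was the lowest. The mean was 0.64 ± 0.20 (SD, n = 6), a fold of 1.56 with a 95% interval of 1.37 to 1.77 and an adjusted p of 0.000802 by limma. Of the genes tested, 3.93% had a higher ratio. The probe read 0.755, 0.904 and 1.08 (lowest, median and highest) on the 6 arrays with sighted RNA in Cy5. It read -0.025, 0.373 and 0.672 on the 6 arrays with sighted RNA in Cy3, of which 5 were above 0.

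Syt1, the calcium sensor synaptotagmin 1, had log2 ratios of 0.308, 0.312, 0.374, 0.352, 0.324 and 0.615 in the eye replicates. Replicate 6 stood above the other 5, which lay close together, and it lacks probe 15791. The mean was 0.38 ± 0.12 (SD, n = 6), a fold of 1.30 with a 95% interval of 1.18 to 1.44 and an adjusted p of 0.0028 by limma, and 9.73% of the genes tested had a higher ratio. Without replicate 6 the mean was 0.334 at an adjusted p of 0.00677.

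The 3 probes of Syt1 did not give the same ratio. Probe 17277 averaged 0.64 ± 0.23 over 6 eye replicates, from 0.22 to 0.868 (adjusted p = 0.00125, limma on single probes). Probe 16814 averaged 0.28 ± 0.11 over 6 replicates, from 0.166 to 0.445 (adjusted p = 0.0108). Probe 15791 averaged 0.14 ± 0.31 over 5 replicates, from -0.328 to 0.53, and did not pass (adjusted p = 0.44). Taken singly, 2 of the 3 probes thus passed, and which transcripts of Syt1 each probe reads was not examined. All 3 probes were higher in eye with sighted RNA in Cy5 than in Cy3. Probe 17277 averaged 1.07 with Cy5 and 0.203 with Cy3, the widest gap of the 3. Probe 16814 averaged 0.442 and 0.13, and probe 15791 averaged 0.231 and -0.21.

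**Figure D1:**
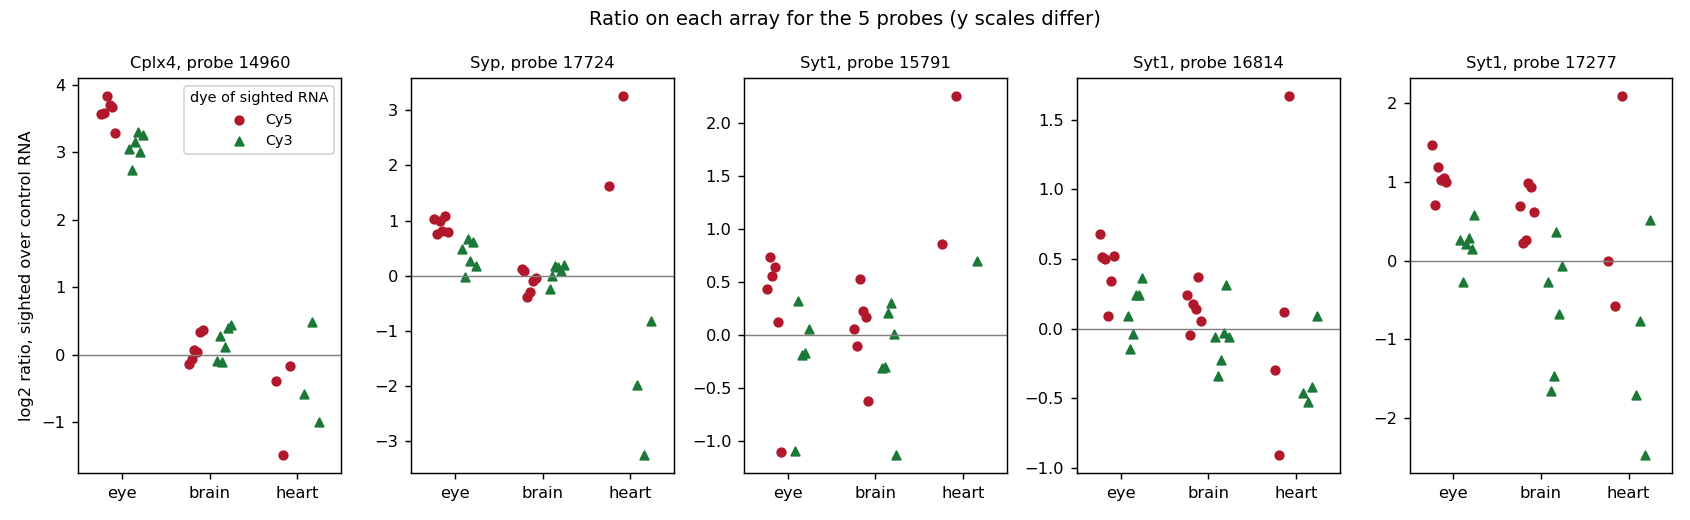
Log2 ratio of sighted over control RNA (vertical axes, with a scale for each panel) of the 5 probes on every array of eye, brain and heart, with circles for sighted RNA in Cy5 and triangles for sighted RNA in Cy3. Cplx4 lies between 2.74 and 3.83 on all eye arrays, while Syp in heart is above 0 with Cy5 and below 0 with Cy3.

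All 3 genes had higher ratios in eye with sighted RNA in Cy5 than in Cy3. Cplx4 averaged 3.61 with Cy5 and 3.08 with Cy3. With sighted RNA in Cy3 alone, Syp averaged 0.364 (adjusted p = 0.0591, limma) and Syt1 0.0763 (adjusted p = 0.654) on 6 arrays, so neither passed. With sighted RNA in Cy5 alone, they averaged 0.91 (adjusted p = 0.000204) and 0.582 (adjusted p = 0.00458). The medians of the eye arrays were not all at 0 but between -0.061 and 0.535 as deposited. With each array centred on its median, a setting chosen for these orientations after seeing the data, Syp averaged 0.575 with Cy3 (adjusted p = 0.0105) and 0.632 with Cy5 (adjusted p = 0.00104). In the same setting Syt1 averaged 0.287 with Cy3 (adjusted p = 0.0357) and 0.304 with Cy5 (adjusted p = 0.0222). Cplx4 averaged 3.29 with Cy3 and 3.33 with Cy5 there, and passed in both.

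Marker lists of the cells and tissues of the eye differed in how many genes passed, beside 15.9% of all genes in eye that rose and 11% that fell. All 6 rod genes on the arrays, which include Sag and Rom1, were higher in sighted eyes, with a median log2 ratio of 5.23 and gene means from 4.14 to 6.45, and their direction is fixed by the reading of the ratio. Of 3 cone genes all 3 rose, with means from 0.26 to 0.485. Of 4 bipolar genes 0 passed, with 1 under an unadjusted p of 0.05 and means from -0.108 to 0.171. In the amacrine and horizontal list 1 of 9 rose and 2 fell, and in the ganglion cell list 0 of 7 rose and 1 fell. Of the Mueller and astroglia genes 1 of 11 rose and 3 fell, and of the pigment epithelium genes 1 of 3 rose and 0 fell. Of 11 genes of neurons in general, 2 rose, Eno2 at 0.42 and Map1b at 0.96, and 9 did not pass. The share that passed was 33.3% for amacrine and horizontal, 14.3% for ganglion and 36.4% for Mueller and astroglia genes. It was 33.3% for pigment epithelium and 18.2% for general neuron genes. On such short lists these shares lie near the 26.8% of all genes, and the counts are not results on those cells. Of genes outside the neural retina, 10 of 11 lens genes rose and 1 fell, 10 of 11 of cornea and surface epithelium fell with a list median of -1.03, and 12 of 13 of skeletal muscle fell and 1 rose, with a list median of -0.832. Their part in the ratios of Cplx4, Syp and Syt1 was not tested.

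**Figure D2:**
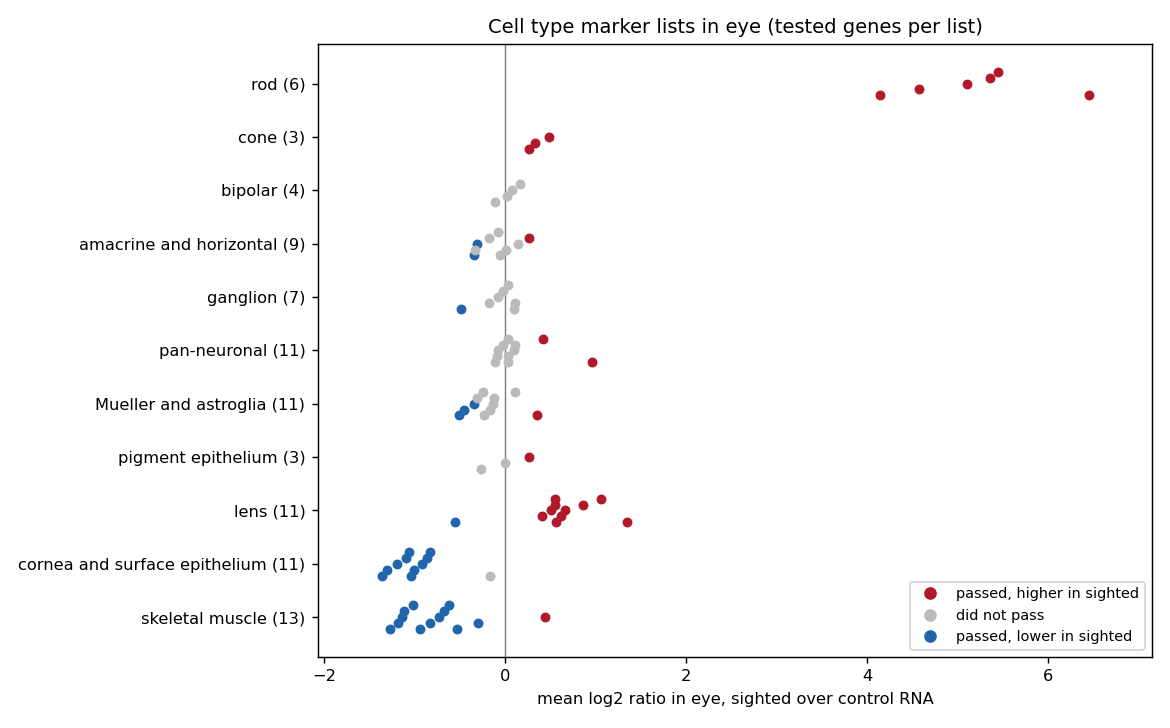
Mean log2 ratio of sighted over control RNA in eye (horizontal axis) of each tested gene of 11 marker lists (rows, with the number of genes tested), coloured by whether it passed an adjusted p of 0.05. The 6 rod genes lie between 4.14 and 6.45, the 4 bipolar genes near 0, and most genes of cornea and muscle below 0.

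In brain, none of the 3 genes passed the test. Of 16112 genes tested in brain, 0.00621% passed, that is 1 gene, with 657 at an unadjusted p under 0.05 (limma). Syp and Syt1 are made by most neurons of the brain, and Cplx4 is known mainly from the retina.

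Syp in brain had log2 ratios of -0.109, -0.032 and 0.0845 (lowest, median and highest of 6 replicates). The replicates lay closely on both sides of 0. The mean was -0.018 ± 0.071 (SD, n = 6), with a 95% interval of -0.14 to 0.10 (adjusted p = 0.977).

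Syt1 in brain had -0.37, -0.013 and 0.331 (lowest, median and highest), with 3 of 6 replicates above 0. Its mean was -0.013 ± 0.26 (SD, n = 6), with a 95% interval of -0.24 to 0.21 (adjusted p = 0.989). Probe 17277 had the widest spread of its probes, and was above 0 on 6 of 6 arrays with sighted RNA in Cy5 and on 1 of 6 with sighted RNA in Cy3, so that its sign went with the dye.

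Cplx4 in brain had -0.111, 0.09 and 0.408 (lowest, median and highest), with 4 of 6 replicates above 0. Its mean was 0.14 ± 0.21 (SD, n = 6), with a 95% interval of -0.05 to 0.33 (adjusted p = 0.959). The interval leaves room for a fold of up to 1.26 and not for the ratio seen in eye. On 1 brain array the reading was at the value that equal readings of both channels take.

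In heart, 0 of 12755 genes passed, which is 0%, with 1042 at an unadjusted p under 0.05 (limma). On simulated ratios with the spread of the heart replicates, the same test found 0% of log2 changes of 0.5 and 19.4% of changes of 1. A gene that did not pass in heart can therefore still differ by such sizes. Cplx4 had log2 ratios of -0.488, -0.502 and -0.575 in 3 heart replicates and no value in replicate 4. Its mean of -0.52 ± 0.047 (SD, n = 3) had a 95% interval of -0.93 to -0.12 and an unadjusted p of 0.0213, and it did not pass after adjustment (adjusted p = 0.568). The close agreement of the replicates is one of means only, since the 6 single arrays ranged from -1.48 to 0.479.

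Syt1 had -0.616, -0.695, -0.17 and 0.879 in the 4 heart replicates. Replicate 4, which lay alone above 0, rests on 1 probe and on an array with 61.6% of values missing. The mean was -0.15 ± 0.72 (SD, n = 4), with a 95% interval of -0.85 to 0.55 (adjusted p = 0.855).

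Syp in heart had both dyes in 1 replicate alone, at -0.17, and was not tested. It was read on 5 heart arrays. The ratio was 1.63 and 3.25 on the 2 arrays with sighted RNA in Cy5, and -1.97, -3.25 and -0.817 on the 3 with sighted RNA in Cy3. The ratio of Cy5 over Cy3 was thus above 0 on all 5, whichever RNA carried Cy5.

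Calls in the organs taken alone do not show that organs differ, so the difference was tested. The mean ratios of Cplx4 and Syt1 were highest in eye, then in brain, then in heart, but brain and heart did not differ by the test for either gene, and the order of brain and heart turned for Syt1 without heart replicate 1 or 2 (-0.0181 and -0.0445, brain minus heart). Syp was higher in eye than in brain. Between eye and brain 17.6% of 15499 genes differed, 10.9% with the eye higher and 6.72% with the eye lower. Cplx4 was 3.21 higher in eye than in brain on the log2 scale (95% interval 2.98 to 3.43, adjusted p = 1.39e-10, limma). The difference for Syp was 0.66 (0.45 to 0.86, adjusted p = 0.000303). For Syt1 it was 0.39 (0.14 to 0.64, adjusted p = 0.0311), the least firm of the 3. Without eye replicate 3, 4 or 6 the adjusted p for Syt1 was 0.0544, 0.0522 and 0.0685, and without brain replicate 2, 3 or 6 it was 0.0609, 0.0592 and 0.0676.

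Between eye and heart 15.3% of 12547 genes differed, 8.78% with the eye higher and 6.49% with the eye lower. Cplx4 was 3.87 higher in eye (95% interval 3.59 to 4.14, adjusted p = 3.35e-08). Syt1 did not pass, at 0.53 (-0.04 to 1.10, adjusted p = 0.193), and without heart replicate 4 it was 0.874 (adjusted p = 0.0039). Between brain and heart 0% of 12688 genes differed, with 2183 at an unadjusted p under 0.05 (limma). Cplx4 was at 0.66 there (0.34 to 0.98, unadjusted p = 0.001, adjusted p = 0.132) and Syt1 at 0.14 (-0.47 to 0.75, adjusted p = 0.829). The fit with a shared spread gives too small p-values with heart. With each organ's own spread, a setting added after seeing the data, Cplx4 had an adjusted p of 0.000127 for eye minus heart and of 0.546 for brain minus heart. Syp was in no test with heart.

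**Figure D3:**
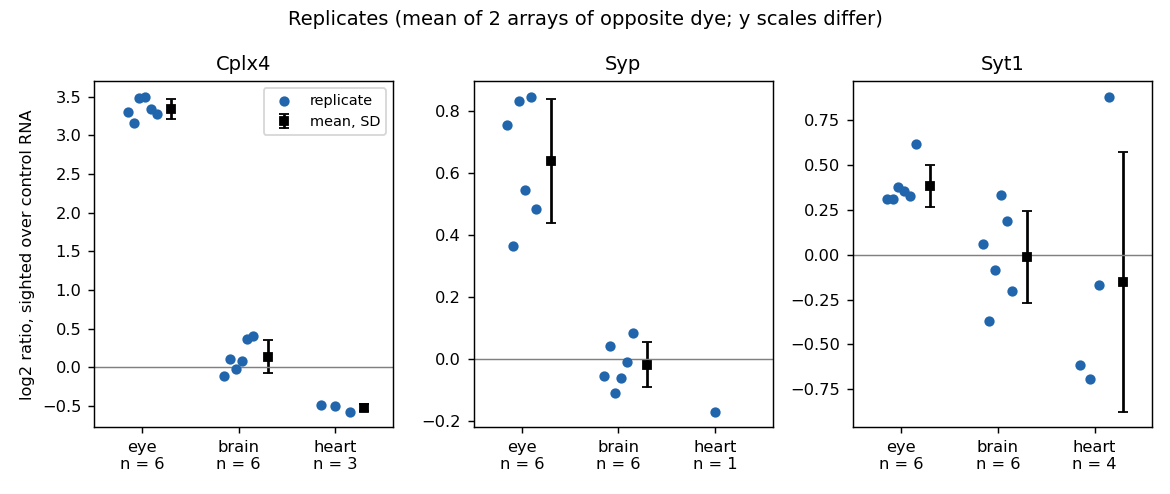
Log2 ratio of sighted over control RNA (vertical axes, with a scale for each panel) of Cplx4, Syp and Syt1 in the replicates of eye, brain and heart, where points are means of 2 arrays of opposite dye and squares with bars are the mean and SD. All eye replicates of all 3 genes are above 0, while the brain replicates lie on both sides of it.

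Of 4 complexins tested in eye over both dye orientations, Cplx4 alone passed. Since 26.8% of all genes passed in eye, this count by itself is no result about the family. Cplx1 and Cplx2, the complexins of most brain synapses, had log2 ratios of 0.16 ± 0.20 (adjusted p = 0.186) and -0.04 ± 0.15 (adjusted p = 0.688), and Cplx3, which is found at ribbon synapses and in amacrine cells, had 0.08 ± 0.19 (adjusted p = 0.485, limma, SD, n = 6 each). Cplx4 was at 3.34 ± 0.13 on the same scale. Under 1 or more of the settings with a single dye the sign of Cplx1, Cplx2 and Cplx3 turned. With sighted RNA in Cy5 alone Cplx1 passed at 0.404 (adjusted p = 0.0161), and with those arrays centred Cplx2 passed at -0.316 (adjusted p = 0.0234).

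Of the synaptotagmins, 7 were tested in eye and 2 rose, Syt1 at 0.38 and Syt9, another fast calcium sensor, at 0.29 ± 0.20 (SD, n = 6, adjusted p = 0.0311). Among all genes in eye 15.9% rose and 11% fell, and a count on 7 genes shows little beside that. Syt9 was above 0 in 5 of 6 replicates and lost its call without replicate 1, 3, 4, 5 or 6 (adjusted p from 0.0754 to 0.092). The other 5 had means from -0.177 for Syt7 to 0.239 for Syt14 and did not pass.

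Of 7 members of the synaptophysin family tested in eye, Syp alone rose and 3 fell, beside 15.9% of all genes that rose and 11% that fell. A count on 7 genes shows little beside these shares and is no result about the family. Syngr2 (synaptogyrin 2, found in many tissues) fell by 0.65, Sypl (synaptophysin-like, found outside neurons too) fell by 0.65, and Sypl2 (mitsugumin 29 of skeletal muscle) fell by 0.56 on the log2 scale, each lower in 6 of 6 replicates, with adjusted p of 0.000203, 0.000925 and 0.00389 by limma. With sighted RNA in Cy5 alone Sypl2 was at -0.106 and did not pass (adjusted p = 0.614). Synpr, Syngr1 and Syngr4 did not pass, and Syngr1 was at -0.38 with an adjusted p of 0.0504. The falling genes moved in the same direction as the muscle and surface epithelium lists above, and the part of those tissues in them was not tested.

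**Figure D4:**
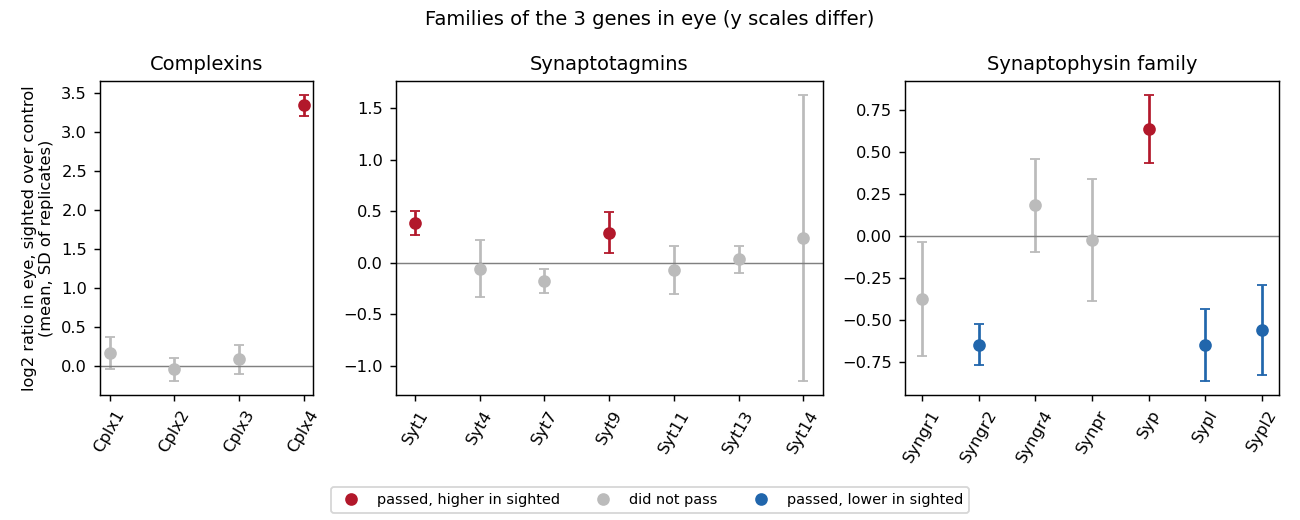
Mean log2 ratio of sighted over control RNA in eye with SD over replicates (vertical axes, with a scale for each panel) of the tested complexins, synaptotagmins and synaptophysin relatives. Cplx4 at 3.34 is apart from the other complexins. Syp passed above 0 and Syngr2, Sypl and Sypl2 below it, while Synpr, Syngr1 and Syngr4 did not pass.

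The wider machinery of release was read from 6 lists with 147 genes in all, of which 89 were tested in eye. Of these, 28 rose and 6 fell, a share of 38.2%, beside 26.8% of all genes, and the median log2 ratio was 0.105 beside 0.0268 for all genes. Without Cplx4, Syp and Syt1, 25 of 86 rose and 6 fell, a share of 36%, with a median of 0.0792. The shares of single lists below count Cplx4, Syp and Syt1 where they are listed. Some genes that rose, such as Cplx4, Stx3, Vamp1 and Vamp2, stand in several lists, so these shares are not separate results. With arrays centred on their median, 31 listed genes rose and 12 fell, counted with Cplx4, Syp and Syt1 and thus set against 28 and 6. Of all genes in eye 2537 rose and 2410 fell there, against 2520 and 1739 without centring. In brain 0 of 88 listed genes passed, with 2 at an unadjusted p under 0.05, and in heart 0 of 71, with 6 (limma). The smallest p belonged to Rab3c in brain at 0.19 (adjusted p = 0.959) and to Dnm3 in heart at 0.57 (adjusted p = 0.568).

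Of the vesicle membrane genes 7 of 29 rose and 4 fell, a share of 37.9% beside 26.8% of all genes. Scamp5, a carrier membrane protein of neurons, rose by 1.06 ± 0.16, and Vamp2, the synaptobrevin that synaptophysin binds, by 0.44 ± 0.073 on the log2 scale (SD, n = 6). Syp had the next highest ratio after Scamp5 in this list. Rab3d, a Rab of secretory granules in glands and other non-neural cells, fell by 0.81, beside Syngr2, Sypl and Sypl2. The neuronal Rab3a was at -0.17 (adjusted p = 0.0644) and Syn1, the vesicle protein synapsin 1, at 0.07 (adjusted p = 0.511). Both were chosen after their values were seen, as widely used vesicle markers.

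Of 9 genes in the list of calcium sensors and their relatives 3 rose, Doc2g at 0.46 ± 0.13, Syt1 and Syt9, and 0 fell. This share of 33.3% is near the 26.8% of all genes. Whether each listed gene senses calcium was not examined. Of the SNARE and fusion genes 7 of 16 rose and 0 fell, a share of 43.8% with Cplx4 counted, beside 26.8% of all genes. After Cplx4 the highest were Stx3, the syntaxin of ribbon synapses, at 1.14 ± 0.30, and Unc13b, a vesicle priming factor, at 1.10 ± 0.19 (SD, n = 6). Stx3 was at 1.72 in replicate 1, above the other 5, and its lowest value was 0.9. Napb, a partner of the SNARE recycling enzyme, was at 0.46, and Nsf, that enzyme, at 0.24. The probes of Nsf ranged from -0.07 to 0.51, and its call was lost without replicate 1, 3, 4 or 6 (adjusted p from 0.0553 to 0.0825).

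Of 10 genes of the active zone, the release site shared by most synapses, 0 rose and 1 fell. Beside 15.9% of all genes that rose and 11% that fell, a count on 10 genes says little about this list. The gene that fell is named next. It was Cacna1b, the pore of the N-type calcium channel, at -0.35 ± 0.24 (adjusted p = 0.0246), which lost its call without replicate 4, 5 or 6 (adjusted p from 0.0632 to 0.0669) and was at 0.09 with sighted RNA in Cy5 alone. Bsn, the scaffold bassoon, was at 0.18 and did not pass (adjusted p = 0.0587), but passed with arrays centred (adjusted p = 0.0338).

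The list of the photoreceptor ribbon synapse, which holds Cplx4, had 6 of 12 genes that rose and 1 that fell, with a median of 0.451. This is a share of 58.3% with Cplx4 counted, beside 26.8% of all genes. Unc119, a photoreceptor synapse and trafficking protein, rose by 2.86 ± 0.14, and Egflam, the matrix protein pikachurin of the photoreceptor cleft, by 2.06 ± 0.24. Cacna1f, the calcium channel pore of photoreceptor terminals, rose by 1.57 ± 0.23, Stx3 by 1.14 and Ctbp2, whose locus also encodes the ribbon protein RIBEYE, by 0.72 ± 0.12 (SD, n = 6 each, log2 scale). Cplx4 had the highest ratio in this list. The gene that fell was Dag1, the dystroglycan that pikachurin binds and many tissues make, at -0.42 (adjusted p = 0.00176), named after its value was seen.

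Of the vesicle endocytosis genes 9 of 21 rose and 0 fell, a share of 42.9% beside 26.8% of all genes. Dnm1, the dynamin of nerve terminals, rose by 1.02 ± 0.16, Bin1 (amphiphysin 2) by 0.72 ± 0.28, the scaffold Itsn2 by 0.66 ± 0.092 and Ap2a2, a clathrin adaptor subunit, by 0.66 ± 0.21 on the log2 scale (SD, n = 6). Dnajc6, the uncoating factor auxilin, was at 0.46 and lost its call without replicate 1 (adjusted p = 0.0506), with sighted RNA in Cy3 alone (0.313, adjusted p = 0.302) and with top values kept (0.982, adjusted p = 0.175). Dnm3 was at 0.42, with 4 probes between -0.06 and 0.91, and did not pass with every array on its own (0.39, adjusted p = 0.0626) or with sighted RNA in Cy3 alone (0.044, adjusted p = 0.853). The probes of Ap2a2 also disagreed, from 0.25 to 1.21.

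**Figure D5:**
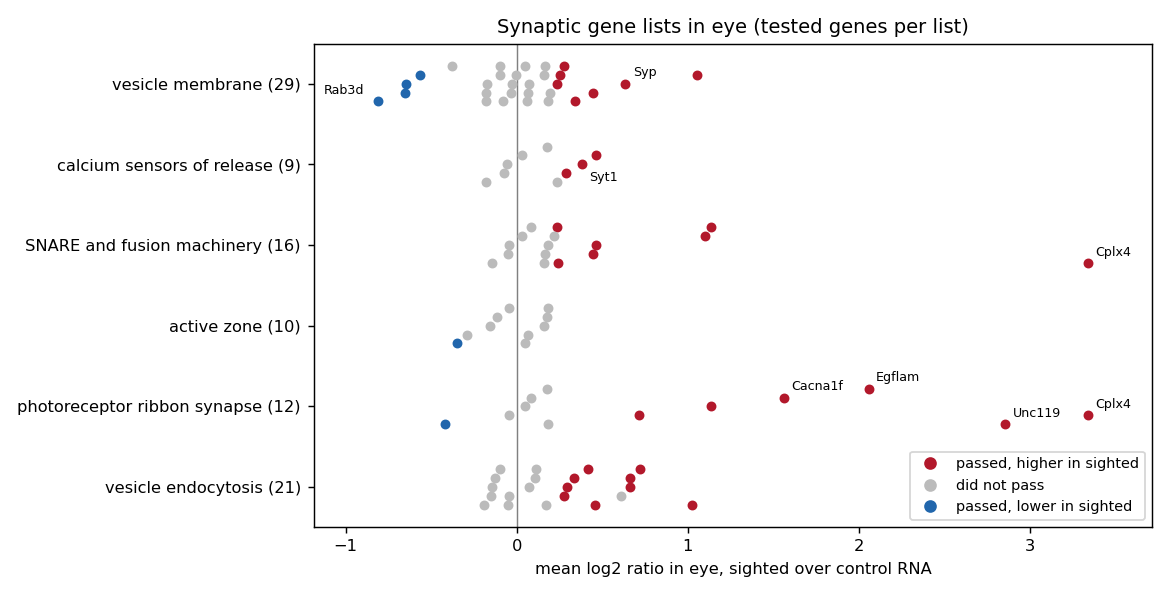
Mean log2 ratio of sighted over control RNA in eye (horizontal axis) of each tested gene of the 6 synaptic lists (rows, with the number of genes tested), coloured by whether it passed an adjusted p of 0.05. Cplx4, which is in 2 lists, lies farthest to the right at 3.34, and Syp and Syt1 lie among the genes that rose by less. Of 10 active zone genes 0 rose and 1 fell, beside 15.9% and 11% of all genes, and so short a list says little.

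The genes with the pattern most like each member were found by the root mean square distance of log2 ratios over all replicates in which the member was measured. For Cplx4, over 15 replicates and 6632 genes, they were Ei24 at a distance of 0.396, Unc119 at 0.452, Rpgrip1 at 0.496, Ccdc126 at 0.528 and Susd3 at 0.566, with a median of 2.13 over all genes. These had mean ratios from 2.59 to 3.09 in eye. For Syp, over 13 replicates and 7328 genes, they were Mef2d at 0.1, Ap2a2 at 0.124, Ubtd1 and Spg7 at 0.131 and Tctex1d2 at 0.133, with a median of 0.495. For Syt1, over 16 replicates and 4080 genes, they were Tbpl1 at 0.215, Plekha2 at 0.219, Ift88 at 0.222, Zdhhc17 at 0.224 and Cdk20 at 0.229, with a median of 0.48. Replicates of an organ share a control pool, and the distances are descriptions.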

How the data were processed

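The 32 arrays compared RNA of sighted and control mice in 12 eye, 12 brain and 8 heart hybridisations, with indirect Cy3 and Cy5 labelling per the labels' protocols. The deposited values are log2 ratios within an array. How the authors scanned, background-corrected and normalized them is not given in the sources used here, and scale, centring and direction stay unknown. The value that equal readings of both channels take, inferred from the repeated top value, was 0 on all eye arrays. It lay between -0.649 and 0.44 on brain arrays and, where it could be read, between -0.692 and 0.86 on heart arrays. Relative to that value, most brain and heart arrays are thus shifted by a constant and the eye arrays are not. Whether this shift is a centring by the authors is not known. The main fits and the organ differences took all arrays as deposited, so arrays with and without such a shift were set against each other. Array medians lay between -0.061 and 0.535 in eye, 0.002 and 0.1 in brain and 0.034 and 0.217 in heart. The direction, Cy5 over Cy3, was inferred from rod genes. Brain array 3 is labelled Cy5 in both channels, and its sighted RNA was taken as Cy5.

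The members, gene lists and tests were chosen with earlier results of these data known. The sign was turned where sighted RNA carried Cy3, neighbouring arrays of swapped dye were averaged to a replicate, and then probes of a gene were averaged. This pairing was read from array numbers alone. Once each dye orientation's mean was taken off, arrays of a pair correlated at 0.0763 in eye, 0.00453 in brain and -0.00951 in heart on average. Values above 15, a repeated top value, were treated as missing, and a gene could miss 1 replicate. Of 20794 probes, 12771 carried 1 symbol, 0 several and 8023 none, and a RefSeq table of GRCm38.p6 changed 0 symbols. The files name no genome build. All 32 columns were mapped to samples.

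Each organ's mean was tested against 0 with limma 3.58.1 in R 4.3.3, two-sided, with moderated variances, 95% intervals and Benjamini-Hochberg adjustment at 0.05 over all genes tested. Organ differences were tested in a limma fit of both organs with a shared spread. The scripts were tested on simulated data, in which this fit gave too many small p-values for differences with heart, and not for those between eye and brain. Genes of the lists were named by a rule: the called members in eye with 1 sign in every replicate, at most 6 per list by size, or, where fewer than 2 passed, the 2 of smallest p, and in brain and heart the member of smallest p. Alternatives were single arrays, centring, scaling, missing values, single probes, robust moderation, single dye orientations, leaving out the noisiest 20% of genes, and each replicate left out. Equal readings of both channels treated as missing, probes averaged before pairs, each organ's own moderated spread, and centred arrays of a single dye orientation were added after seeing the data. Matching of equal readings used a tolerance of 0.0015.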

Additional observations from a re-analysis of the deposited data

Results flagged for a closer look

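Syt1 in eye was at 0.615 in replicate 6, far above the other 5 replicates. This replicate lacks probe 15791, the lowest of the gene's probes. Stx3 in eye was at 1.72 and Ctbp2 at 0.954 in replicate 1, in both cases far above the other 5. The limit used, Dixon's 95% critical value, marks about 1 in 20 groups by chance.

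The ratio of sighted over control RNA differed between eye and brain for all 3 genes, and between eye and heart for Cplx4. For Syt1 the call between eye and brain was lost under 7 of 16 alternatives. Its difference between eye and heart did not pass (adjusted p = 0.193, limma), and Syp was in no test with heart. Cplx4 was 3.21 higher in eye than in brain and 3.87 higher in eye than in heart on the log2 scale. The differences between eye and brain were 0.655 for Syp and 0.394 for Syt1. The eye pool held RNA of other control mice than the brain and heart pools, and pool and organ cannot be told apart.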

How the results depend on the processing

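Cplx4 in eye passed under all 22 alternatives, at 3.08 to 3.77. Syp in eye passed under 21 of 22, and with sighted RNA in Cy3 alone it was at 0.364. Syt1 in eye passed under 21 of 24: it was at 0.329 with every array on its own (adjusted p = 0.05), at 0.0763 with sighted RNA in Cy3 alone and at 0.142 by probe 15791. The cause was not tested. With each replicate left out, Syp in eye was at 0.595 to 0.691 and Syt1 in eye at 0.334 to 0.395.

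In eye, 2520 genes rose and 1739 fell, against 1533 and 1121 with every array on its own, 6072 and 508 with sighted RNA in Cy5 alone, and 553 and 3394 with sighted RNA in Cy3 alone. Of the synaptic lists in eye, 28 rose and 6 fell, against 12 that fell with arrays centred (2410 of all genes in eye fell there) and 12 with arrays also scaled, 45 that rose with Cy5 alone, and 10 that rose and 16 that fell with Cy3 alone. Of single genes in eye, the sign turned for Cacna1b (0.0937) with Cy5 alone, for Cplx1 (-0.0745), Cplx3 (-0.0745) and Nsf (-0.0544) with Cy3 alone, for Bsn (-0.119) and Cplx3 (-0.0375) with Cy5 alone and centred arrays, and for Cplx2 (0.159) with Cy3 alone and centred arrays. With Cy3 alone, Ap2a2, Bin1, Doc2g, Napb, Vamp2, Syt9, Dnajc6 and Dnm3 did not pass (adjusted p from 0.0611 for Ap2a2 to 0.853 for Dnm3).

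In brain, 0 genes rose and 1 fell. Counts were 3 lower with every array on its own, 1 higher and 3 lower with the pair as a random block, 2 higher and 4 lower with a dye term, 2 lower with scaling, 0 lower with top values kept, 2 lower where every replicate was needed, and 3 higher and 5 lower without the noisiest genes. With each replicate left out, 0 to 1 fell. In brain with Cy5 alone 691 rose and 45 fell (408 and 56 centred), and with Cy3 alone 95 rose and 1232 fell (116 and 591 centred), of which in the synaptic lists 3 rose with Cy5 and 6 fell with Cy3 (1 that rose with Cy5, and 1 that rose and 2 that fell with Cy3, centred). Syp in brain turned to 0.0645 with Cy3 alone and 0.122 centred. Syt1 in brain turned to 0.0022 with scaling, 0.273 with Cy5 alone, 0.219 centred and 0.0458 by probe 16814, and lay between -0.0823 and 0.0579 with replicates left out (0.0579, 0.000767 and 0.0245 without replicate 2, 3 or 6). None of these single genes passed.

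In heart, 28 genes rose and 25 fell without the noisiest genes, against 0. Syt1 in heart turned to 0.0646 with every array on its own, with the pair as a block, with a dye term, and with probes averaged first, to 0.699 with Cy5 alone and to 0.594 centred, and lay between -0.493 and 0.0312 with replicates left out (0.00475 and 0.0312 without replicate 1 or 2).

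With equal replicate numbers of different organs as a block, the Syt1 difference between eye and brain of 0.394 had an adjusted p of 0.0742, and no other call of these genes changed. Same-numbered replicates of different organs correlated at -0.0476 to 0.0531. Arrays of a pair within an organ correlated little as well (0.0763 in eye, 0.00453 in brain and -0.00951 in heart on average). These correlations therefore cannot show whether equal numbers share an animal. With replicates left out, this Syt1 difference was 0.323 to 0.463, that between eye and heart 0.35 to 0.874, and that between brain and heart -0.0445 to 0.48 (-0.0181 and -0.0445 without heart replicate 1 or 2). The missing values of the heart arrays and their 4 replicates limit what heart can show.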
